A study of Bos taurus with 16 samples.

Results

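The genes of JmjC histone demethylases KDM4A, KDM4B, KDM4C, KDM5A, KDM5B and KDM6B were followed through bovine pre-implantation development. They were chosen by name, as the loci whose gene name equals one of these 6 symbols among the 27393 loci of the expression table, and where a name had several loci the one with the highest mean was used. All 6 were found. The samples were single oocytes matured in vivo and single embryos developed in vivo from Bos taurus, 16 in all, with 2 samples at each of 8 stages. These were oocytes at metaphase of the second meiotic division (MII), embryos of 2, 4, 8 and 16 cells (2C, 4C, 8C and 16C), the early (EM) and the compact morula (CM) and the blastocyst (BL). The labels name no treatment or altered gene and give neither breed nor age of the animals. Embryonic genome activation (EGA), when the embryo starts to transcribe its own genes, was placed after 4C and before 8C, as the study does for embryos grown in vivo, so that 6 samples of 3 stages lay before it (MII, 2C and 4C) and 10 samples of 5 stages after it (8C to BL).

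These enzymes remove methyl groups from lysines of histone H3. Members of the KDM4 family act on H3K9 and H3K36, those of the KDM5 family on H3K4, and KDM6B on H3K27. Methylation of H3K9 and H3K27 is associated with silent chromatin, that of H3K4 with active promoters and that of H3K36 with transcribed gene bodies. In the oocyte, transcripts stored during growth serve the embryo until its own transcription begins, and stored transcripts are cleared around that time.

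Levels are given in CPM, the reads of a locus divided by all reads of the sample, in units of 1e6. Between 607672 and 3379426 reads per sample were recovered from the deposited scaled counts, and 3 reads, taken as the smallest detectable number, correspond to between 0.888 and 4.94 CPM. The values are not divided by gene length, so a share of reads held by a gene is not its share of molecules. A lower CPM in a whole embryo can come from fewer cells that carry a transcript or from less of it per cell, which cannot be told apart here. The RNA of each oocyte or embryo was amplified over 2 rounds, and the spread between samples therefore holds both embryo and amplification. Summed levels of 9 oocyte markers, of which BMP15 had no read in any sample, lay between 708 and 1478 CPM before EGA and between 2.95 and 189 CPM after it. The sum of 8 trophectoderm markers was highest in BL (1292 and 1418 CPM), although CDX2 had 1 read and ELF5 2 reads in all 16 samples. Of 9 cumulus markers, STAR and HAS2 carried most reads and fell after EGA, AMH had none, and PTX3, TNFAIP6, CYP11A1 and INHBA had at most 4 reads in any sample. CYP19A1 (217 reads) had a mean of 14.7 CPM before EGA and 3.35 CPM after it, and FSHR (53 reads) 4.33 and 0 CPM. The part of any of these in the results was not tested.

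KDM4A held by far the most reads of the 6 genes. KDM4A (XLOC_050465) collected 19779 reads in the 16 samples and KDM5B (XLOC_019982) 1398, against 468 for KDM5A (XLOC_057705), 300 for KDM4C (XLOC_066897), 116 for KDM6B (XLOC_027186) and 72 for KDM4B (XLOC_063772). Differences over the 8 stages were tested by limma on log2 of the deposited value plus 1, with Benjamini-Hochberg adjustment over the 9670 loci kept for expression. All 6 genes were kept, KDM4B only through its BL samples, KDM4C only through samples before EGA and KDM5B only through samples after it, and 4 passed 0.05: KDM5B, KDM4C, KDM4B and KDM4A. Over all loci 66.7% passed, so 4 of 6 is close to the rate of the table. The limma adjusted p was 1.02e-06 for KDM5B, 1.23e-04 for KDM4C, 0.00991 for KDM4B and 0.0123 for KDM4A. KDM5A (0.252) and KDM6B (0.304) did not pass that limma test. Without the filter these 4 genes passed as well, with a limma adjusted p of 8.49e-06 for KDM5B, 7.33e-04 for KDM4C, 0.0284 for KDM4B and 0.0341 for KDM4A. In that fit 6950 of 18318 loci passed.

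**Figure D1:**
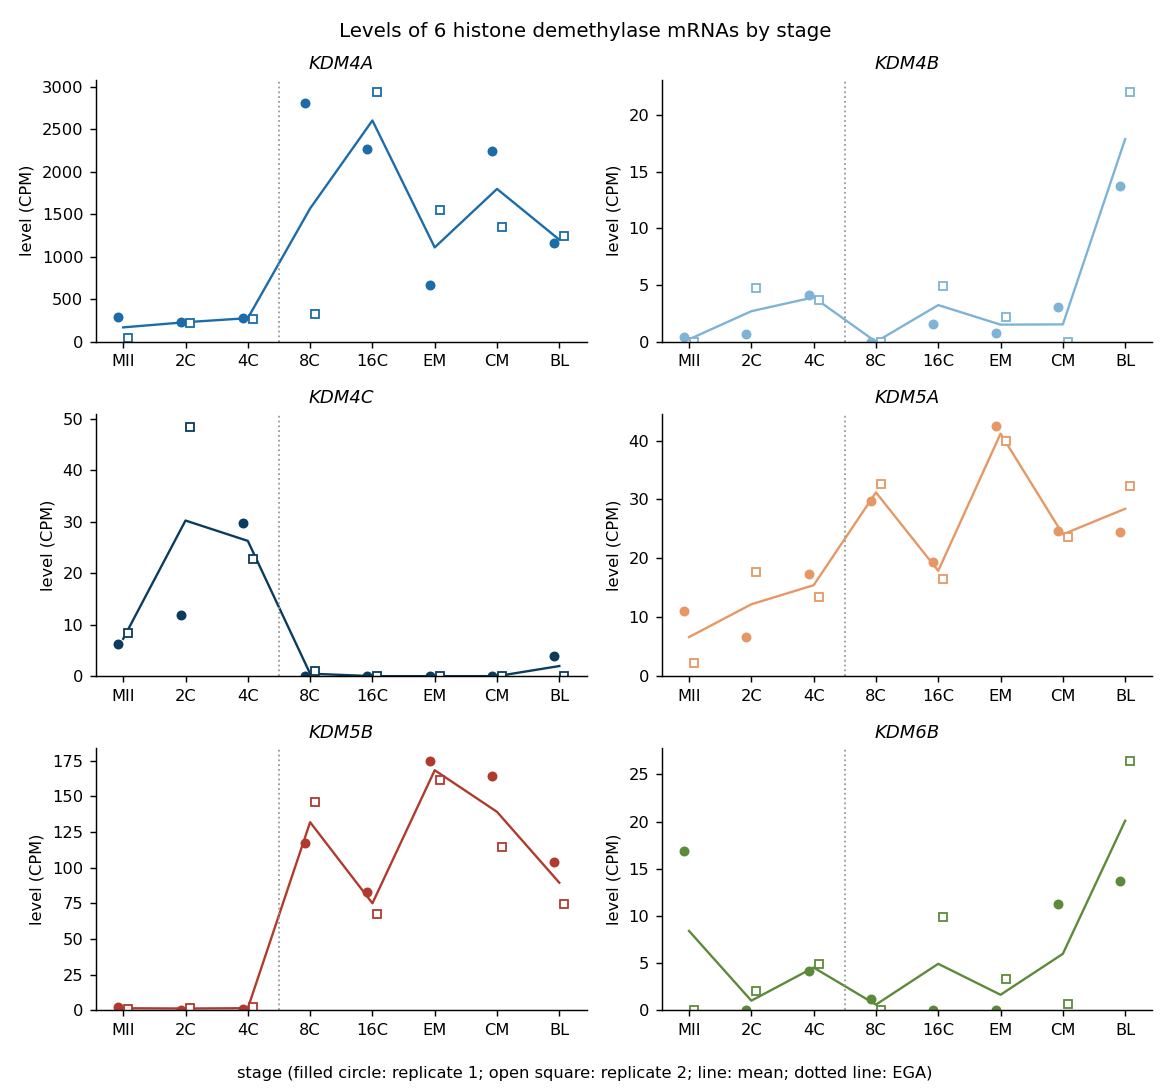
Level in CPM (vertical axes, a separate linear scale for each gene, from 0) of the 6 genes at 8 stages (horizontal axes). Filled circles are replicate 1, open squares replicate 2, lines join the means, and the dotted line marks EGA. KDM4A and KDM5B are higher after the dotted line, KDM4C at the used locus is at or near 0 there, and KDM4B and KDM6B have their highest mean in BL.

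The KDM4 family comes first. KDM4A, a demethylase of H3K9 and H3K36, was present in every sample. Before EGA its level was 290 and 49.96 CPM in the MII oocytes, 238 and 223 CPM in 2C, and 285 and 271 CPM in 4C embryos (replicates 1 and 2). After EGA it was 2811 and 323 CPM in 8C, 2267 and 2936 CPM in 16C, 671 and 1548 CPM in EM, 2243 and 1351 CPM in CM, and 1159 and 1242 CPM in BL. Every sample after EGA was above every sample before it in CPM, but the second 8C embryo stood only just above the highest oocyte and 4C embryo. On the deposited scale it fell below replicate 1 of MII, with a value of 385 against 604. The mean rose from 226 ± 90.3 CPM (SD, n = 6) to 1655 ± 879 CPM (SD, n = 10), a ratio of 7.32.

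On the log2 scale of the deposited value plus 1, KDM4A was higher after EGA by 2.33 (SE 0.48, limma adjusted p = 2.25e-04 over 6910 loci). Of these loci 36.9% passed as higher, 29.9% as lower and 66.8% either way, and 18.4% were without overlap in this direction in CPM. The median change of all loci was 0.23, and scaling to total reads moved it to 0.67. Without the second 8C embryo the change of KDM4A was 2.55 (limma adjusted p = 3.18e-05), and without both 8C embryos 2.40 (limma adjusted p = 6.68e-05).

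By stage, KDM4A was highest in 16C at 2601 ± 473 CPM (SD, n = 2), followed by CM, 8C, BL and EM, and on the deposited scale 8C (2239) stood before CM (2100). The ranges of 16C and CM did not overlap, while those of CM and 8C, of 8C and BL, and of BL and EM did. Those of 16C (2267 and 2936 CPM) and 8C (323 and 2811 CPM) overlapped as well. On the deposited scale 8C replicate 1 (4093) was above both 16C embryos (3194 and 2885). The step from 4C to 8C did not pass, with a log2 change of 1.77 (SE 0.88, limma adjusted p = 0.128). The 8C embryos decided this value: without the first the change was 0.06 (limma adjusted p = 0.989), and without the second it was 3.47 (limma adjusted p = 0.00370). On the recovered reads the same step passed in edgeR (2.70, adjusted p = 0.0315) and in DESeq2 (2.60, adjusted p = 0.0105). None of the other 6 steps of KDM4A between neighbouring stages passed in limma.

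The 8C embryos also differed in an oocyte transcript. H1FOO, the oocyte-specific linker histone (XLOC_037459), was at 21.0 CPM in 8C replicate 1 and at 1347 CPM in replicate 2, between 2419 and 2544 CPM in 4C, and at 3.86 and 3.29 CPM in 16C. The embryo with low KDM4A was thus the one with high H1FOO. KDM5B did not differ in that way, with 118 and 146 CPM in the 8C embryos, and the used KDM4C locus had 0 and 1 read, with up to 3.71 CPM undetected at 0 reads. The part of the remaining oocyte transcripts in the KDM4A values was not tested.

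**Figure D2:**
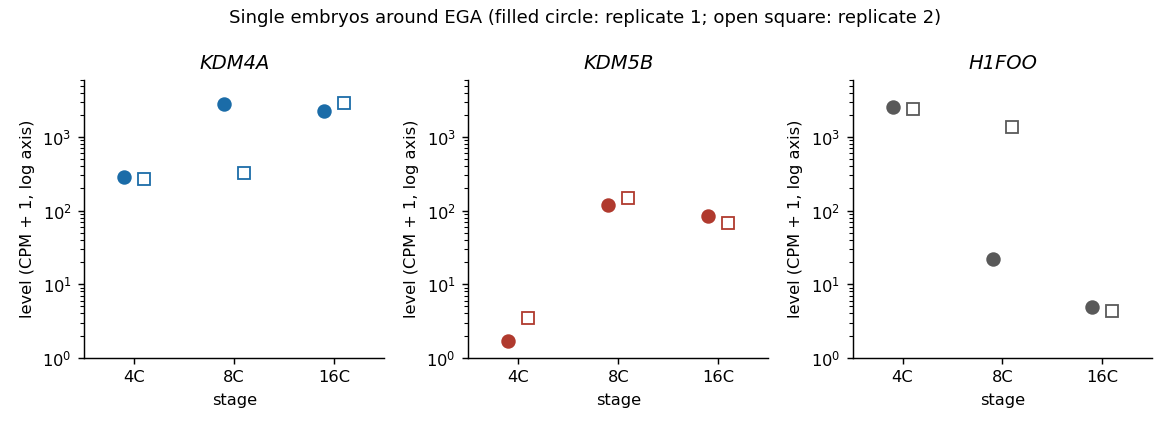
Levels of KDM4A, KDM5B and H1FOO (CPM + 1, log axis) in the single embryos of 4C, 8C and 16C (filled circle, replicate 1; open square, replicate 2). The 8C embryos are apart for KDM4A (2811 and 323 CPM) and H1FOO (21.0 and 1347 CPM) but close for KDM5B (118 and 146 CPM).

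A second locus named KDM4A, XLOC_051142, had 181 reads in all. Its level was 4.39 ± 4.00 CPM (SD, n = 6) before EGA and 11.3 ± 6.56 CPM (SD, n = 10) after it, and the groups overlapped. Adding it to the first locus left the change of KDM4A at 2.32 (limma adjusted p = 2.37e-04).

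KDM4B, the paralog of KDM4A with the same substrates, had few reads, and its highest levels were in the blastocyst. It had 1 and 0 reads in MII, 1 and 16 in 2C, 6 and 6 in 4C, 0 and 0 in 8C, 2 and 3 in 16C, 1 and 4 in EM, 3 and 0 in CM, and 14 and 15 in BL. Only 8 of 16 samples reached 3 reads. In BL it stood at 13.8 and 22.0 CPM, above every other sample, the next being 16C replicate 2 at 4.94 CPM.

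In limma KDM4B passed at 2 steps. From CM to BL it was higher by 3.22 on the log2 scale (SE 0.87, limma adjusted p = 0.0477), a step at which 2.92% of loci passed as higher and 4.42% either way. KDM4B was kept for the test only through the BL samples, the group in which it is high. This call ended with a pseudocount of 0.5, with TMM factors, without the filter (limma adjusted p = 0.0796), with the BL and CM samples alone (limma adjusted p = 0.256) and in edgeR (adjusted p = 0.303). It also ended without any single MII, 4C, 16C, EM or BL sample or without CM replicate 2, where the change lay between 2.17 and 3.57 (limma adjusted p between 0.0528 and 0.431). From 4C to 8C the fitted change was -2.63 (limma adjusted p = 0.0281). With no read in either 8C embryo, at most 3.71 and 2.89 CPM could have gone undetected there, and against that limit of 3 reads per library the 4C mean was at least 1.19-fold higher. The call for this step ended in edgeR (adjusted p = 0.0927), in DESeq2 (adjusted p = 0.111), with a pseudocount of 5, without the filter (limma adjusted p = 0.0583) and without any one of the 4C or 8C embryos.

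KDM4C, the third member of the family, was a transcript of the oocyte and of the first cleavages at the locus used. It was at 6.20 and 8.33 CPM in MII, 12.0 and 48.5 CPM in 2C, and 29.9 and 22.7 CPM in 4C. After EGA the 10 embryos together had 5 reads, 1 of them in 8C replicate 2 and 4 in BL replicate 1, against 295 reads in the 6 samples before it. Every sample after EGA was below every sample before it, as was the case for 5.07% of the 18318 loci with a read. The mean was 21.3 ± 16.1 CPM (SD, n = 6) before EGA and 0.489 ± 1.25 CPM (SD, n = 10) after it.

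The step from 4C to 8C of KDM4C was -4.60 on the log2 scale (SE 0.89, limma adjusted p = 0.00130, and 0.00415 without the filter), at which 19.1% of loci passed as lower and 36.8% either way. With 1 read in the 8C embryos against 80 in 4C, this fitted size depends on the pseudocount, and the ratio of 4C to 8C in reads per total was 48.2 with a 95% exact counting interval of 8.41 to 1927. The change from before to after EGA could only be fitted without the filter on low reads, which KDM4C did not pass for that comparison. There it was -4.38 (SE 0.51, limma adjusted p = 5.51e-07 over 18318 loci), with 20.2% of loci passing as lower and 38.6% either way, and its size again depends on the pseudocount. The level before EGA was not even: 4C was above MII without overlap, while the 2C embryos spread from below to above the 4C ones. The steps from MII to 2C (0.83, limma adjusted p = 0.727) and from 2C to 4C (0.22, limma adjusted p = 1.00) did not pass.

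The name KDM4C stood on a second locus, XLOC_067300, with a different course. It carried 221 reads and had at least 1 in all 16 samples, with 10.1 ± 9.76 CPM (SD, n = 6) before EGA and 6.20 ± 4.67 CPM (SD, n = 10) after it, and the groups overlapped. Before EGA the used locus held 65.7% of the reads of both loci (295 of 449), and after it 6.94% (5 of 72). Whether the loci are parts of 1 gene model cannot be read from the table, which gives no positions. With both summed, KDM4C was lower after EGA by a log2 change of -2.48 (SE 0.45, limma adjusted p = 6.14e-05), and the step from 4C to 8C was -2.89 (limma adjusted p = 0.0148). The loss at EGA thus passed for the used locus and for the sum, but was smaller for the sum.

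**Figure D3:**
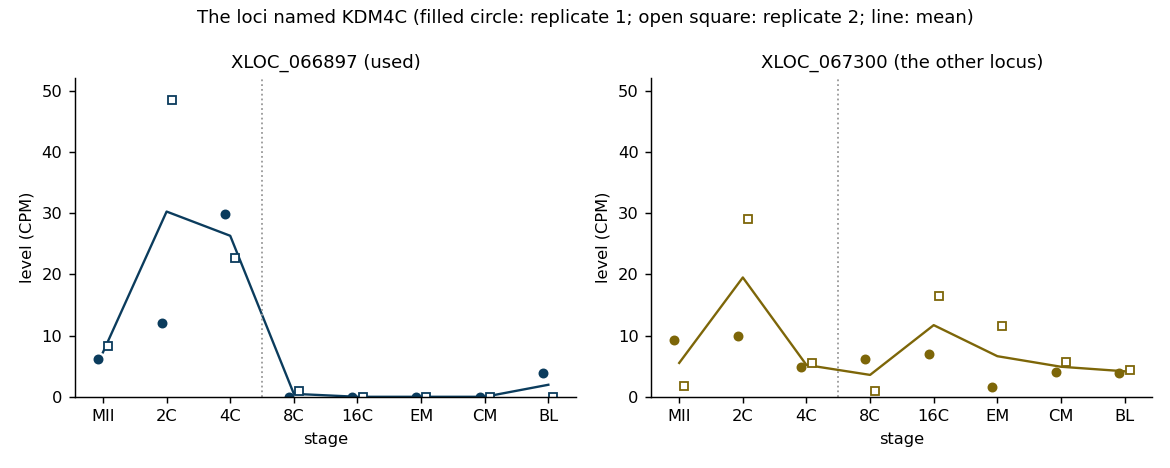
Level in CPM (vertical axes, same scale) of the loci named KDM4C by stage. Filled circles are replicate 1, open squares replicate 2 and lines join the means. XLOC_066897 is at 0 in 8 of 10 embryos from 8C on, while XLOC_067300 has reads in each of the 16 samples.

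The KDM5 family removes methyl groups from H3K4. KDM5B was close to absent before EGA and present at once after it. It had 5 and 2 reads in MII, 1 and 7 in 2C, and 1 and 4 in 4C, which is 0.666 to 2.46 CPM. From 8C on it was at 118 and 146 CPM in 8C, 82.7 and 67.5 CPM in 16C, 175 and 162 CPM in EM, 164 and 114 CPM in CM, and 104 and 74.9 CPM in BL. The samples after EGA lay far above those before it, the lowest embryo being 16C replicate 2. The mean went from 1.497 ± 0.836 CPM (SD, n = 6) to 121 ± 39.2 CPM (SD, n = 10), a ratio of 80.7 that rests on 20 reads before EGA.

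The log2 change of KDM5B was 5.35 (SE 0.36, limma adjusted p = 1.29e-10), without the filter 5.35 again (limma adjusted p = 2.67e-10), and without both 8C embryos 5.24 (limma adjusted p = 8.80e-10). The step from 4C to 8C alone was 5.93 (SE 0.62, limma adjusted p = 1.39e-05, and 5.90e-05 without the filter), where 17.7% of all loci passed as higher. No other step passed. By mean CPM EM was highest, followed by CM, 8C, BL and 16C, and among neighbours in this order only 8C and BL did not overlap. On the deposited scale the order was another, with a mean value of 173 in 8C, 164 in CM and 140 in EM, so the highest stage depends on the scaling.

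KDM5A, the other member of the family among the 6 genes, was present at every stage, with 5 to 72 reads per sample. It was at 11.1 and 2.19 CPM in MII, 6.66 and 17.8 CPM in 2C, and 17.4 and 13.5 CPM in 4C. It was at 29.7 and 32.7 CPM in 8C, 19.3 and 16.5 CPM in 16C, 42.5 and 39.9 CPM in EM, 24.6 and 23.6 CPM in CM, and 24.6 and 32.3 CPM in BL. Of the 10 embryos after EGA, 9 were above all samples before it, the exception being 16C replicate 2. The mean was 11.4 ± 6.13 CPM (SD, n = 6) before and 28.6 ± 8.45 CPM (SD, n = 10) after EGA. The log2 change was 1.00 (SE 0.38, limma adjusted p = 0.0241). It did not pass in edgeR (0.74, adjusted p = 0.114), nor in limma without MII replicate 2 (0.74, adjusted p = 0.0768), without 2C replicate 1 (0.84, adjusted p = 0.0656) or without both 8C embryos (0.89, adjusted p = 0.0540). No single step between neighbouring stages passed.

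KDM6B, the H3K27 demethylase also called JMJD3, was uneven within stages. It had 38 and 0 reads in MII, 0 and 7 in 2C, 6 and 8 in 4C, 1 and 0 in 8C, 0 and 6 in 16C, 0 and 6 in EM, 11 and 1 in CM, and 14 and 18 in BL. BL was the stage with the highest mean, 20.1 ± 8.96 CPM (SD, n = 2), yet MII replicate 1 at 16.8 CPM lay between the blastocysts at 13.8 and 26.4 CPM. On the deposited scale MII replicate 1 (35.1) was above both blastocysts (14.2 and 28.5). The levels before (4.67 ± 6.31 CPM, SD, n = 6) and after EGA (6.66 ± 8.70 CPM, SD, n = 10) overlapped. No step passed in limma, and the change at EGA, fitted without the filter, was -0.09 (SE 0.88, limma adjusted p = 0.939). For KDM4B the same fit gave 0.07 (SE 0.73, limma adjusted p = 0.942). These fits rest on 116 and 72 reads in all.

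Of the 42 steps between neighbouring stages (7 for each gene), 4 passed: 3 from 4C to 8C, where 36.8% of all loci passed, and 1 from CM to BL, where 4.42% did. Over all loci 1.42% passed from MII to 2C, 0.858% from 8C to 16C and 0.103% from 16C to EM. Such counts moved widely when 1 sample was left out: those from MII to 2C from 137 to between 16 (without MII replicate 2) and 332 (without 8C replicate 2), those from 8C to 16C from 83 to between 6 (without 4C replicate 2) and 758 (without 8C replicate 1), those from 16C to EM from 10 to between 0 (without EM replicate 2) and 56 (without 8C replicate 2), and those from CM to BL from 427 to between 134 (without BL replicate 2) and 623 (without 8C replicate 1). From 2C to 4C and from EM to CM 0 loci passed in limma, with 441 and 485 at an unadjusted p under 0.05, while edgeR passed 0 and 0 and DESeq2 1 and 16. In limma without the filter 14 and 3 passed, up to 10 passed from 2C to 4C with a sample left out (without 2C replicate 2), and up to 4 from EM to CM (without CM replicate 2).

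**Figure D4:**
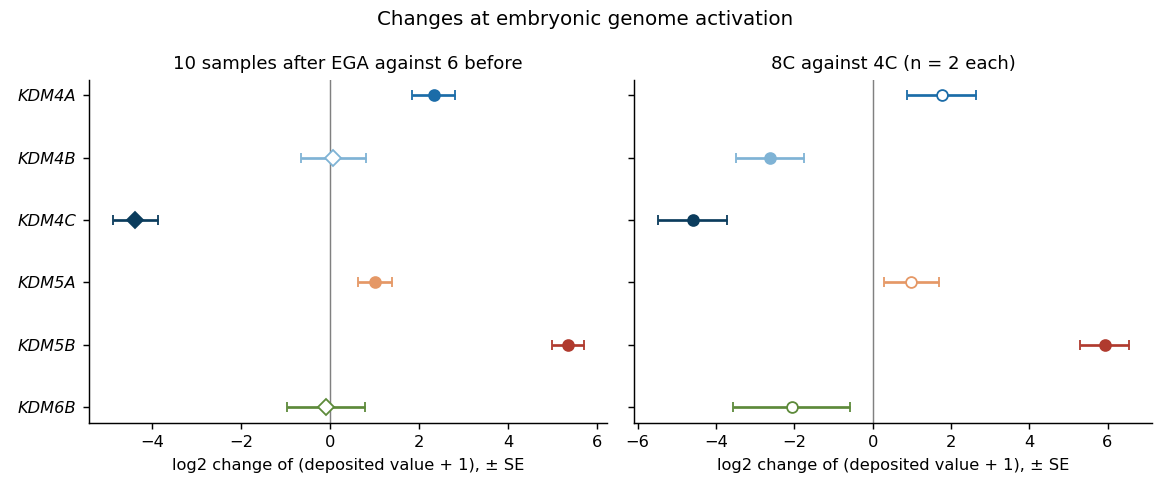
Log2 change of the deposited value plus 1 (horizontal axes, bars ± SE) of the 6 genes (vertical axis), for 10 samples after EGA against 6 before it (left) and for 8C against 4C (right). Filled symbols have a limma adjusted p under 0.05, and diamonds are fits without the filter on low reads. KDM5B is at 5.35 and 5.93, KDM4C (used locus) at -4.38 and -4.60, and the 8C against 4C value of KDM4A (1.77) is open.

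Within each sample the reads of the 6 genes, at the loci used, were then set against each other. KDM4A held the most in 16 of 16 samples, from 64.2% in 8C replicate 2 to 96.7% in 16C replicate 2. In 8C replicate 2 the 95% Wilson interval of that share was 60.0% to 68.3%, which covers counting error only. Its mean share was 84.3% ± 6.06 (SD, n = 6) before EGA and 87.4% ± 10.1 (SD, n = 10) after it, a difference smaller than the spread. The gene in second place changed: it was KDM4C in 5 of the 6 samples before EGA, with KDM6B in MII replicate 1, and KDM5B in all 10 after it.

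Without KDM4A the exchange was plainer. KDM4C at the used locus made up 16.9% to 73.1% of the remaining reads before EGA and 0% to 2.45% after it, while KDM5B made up 1.23% to 7.69% before and 48.1% to 82.5% after. The other KDM4C locus, with 67 of the 72 KDM4C reads after EGA, is left out of these shares. The lowest share of KDM5B after EGA was that of BL replicate 2, where KDM4B and KDM6B had their highest levels in CPM. These shares add to 100% within a sample, so a rise of one gene lowers the others.

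**Figure D5:**
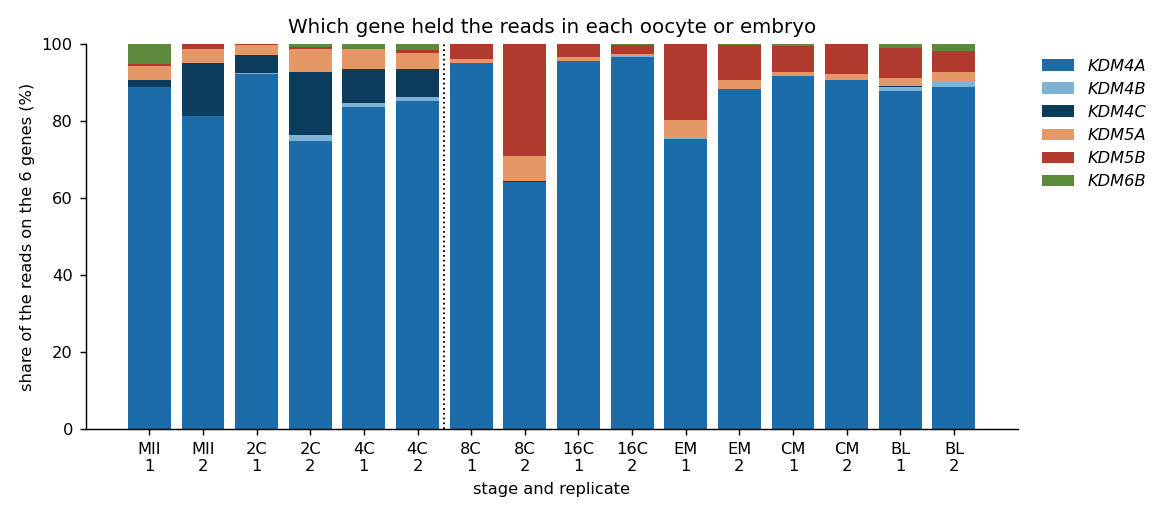
Share of the reads on the 6 genes (vertical axis, %) in each of the 16 samples (horizontal axis: stage and replicate), stacked by gene. The dotted line marks EGA. KDM4A takes 64.2% to 96.7% of each bar, KDM4C at the used locus is visible only before EGA and KDM5B takes the second place after it.

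Ratios between paralogs were compared between the periods by a two-sided exact permutation test over all 8008 ways of assigning the samples to the periods, adjusted over 3 pairs. It takes samples of the same stage as separate units, although the period belongs to the stage, so its p-values may be too small. KDM5B relative to KDM5A went from a mean log2 ratio of -2.32 ± 0.86 (SD, n = 6) to 2.03 ± 0.37 (SD, n = 10), so that KDM5A had more reads in each sample before EGA and KDM5B in each after it (exact permutation p = 1.25e-04, the smallest it can give here, adjusted p = 1.87e-04). This ratio before EGA rests on 20 reads of KDM5B, with under 3 reads in 3 of the 6 samples, and the difference of 4.35 between the periods was 4.59 with a pseudocount of 0.5 and 3.36 with one of 5. The other two ratios rest on few reads as well. At the used locus KDM4C had no read in 8 of the 10 embryos after EGA, where its ratio to KDM4A is set by the pseudocount and is not given. With both KDM4C loci summed, 72 reads in those 10 embryos and at least 1 in each, the log2 ratio of KDM4A to KDM4C was higher after EGA by 4.80 (two-sided exact permutation test, adjusted p = 1.87e-04). KDM4B had a read in only 12 of 16 samples and reached 3 reads in 8, so its ratio to KDM4A, 6.61 ± 1.10 before and 8.87 ± 1.87 after EGA (SD, n = 6 and 10), also holds the pseudocount, and nothing is read from it.

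For each gene the named loci with the most similar course were taken, by Pearson's r of log2(deposited value + 1) over the 16 samples among 9662 loci. These r are a description: the loci were picked for likeness, and all points come from the same 16 libraries with 2 at each stage. KDM5B was followed most closely by SELS (r = 0.98), PPIL1 (r = 0.98) and PRDM14 (r = 0.98), of which SELS and PRDM14 had no read before EGA and reached 94.8 ± 42.3 and 30.5 ± 19.2 CPM (SD, n = 10) after it. Nearest to KDM4C were FBN1 (r = 0.98), ZBTB38 (r = 0.97) and FKBP9 (r = 0.97). FBN1 fell from 27.7 ± 15.4 CPM (SD, n = 6) to 0.194 ± 0.410 CPM (SD, n = 10). KDM4A was nearest to DAB2 (r = 0.93), SLC38A2 (r = 0.93) and ITSN1 (r = 0.92), and KDM5A to CCT3 (r = 0.94), SAP30BP (r = 0.90) and CIRH1A (r = 0.90). ITSN1 was at 35.5 ± 27.6 CPM before EGA and 726 ± 265 CPM after it (SD, n = 6 and 10). Likeness was lower for KDM6B, with PLEKHA7 (r = 0.86), BDNF (r = 0.83) and SYCE2 (r = 0.80), while KDM4B had MGRN1 (r = 0.91), LOC100850383 (r = 0.90) and MCOLN2 (r = 0.89).

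Among other histone demethylases and related JmjC proteins, 22 genes were listed and 20 found by name or older name. Of these, 12 were kept for the comparison at EGA in limma: 4 were higher after it, 3 lower, and 5 did not pass, against 36.9% higher and 29.9% lower among all loci. Their median log2 change was 0.42, against 0.23 for all loci. KDM2A, an H3K36 demethylase, rose by 4.13 (limma adjusted p = 1.30e-08), to 672 CPM after EGA. KDM2B, its paralog and a partner of Polycomb complexes, rose by 3.08 (limma adjusted p = 4.11e-05). KDM6A, the X-linked paralog of KDM6B, rose by 2.76 (limma adjusted p = 1.41e-04), from 0.999 to 16.1 CPM. KDM5C, the X-linked paralog of KDM5B, rose by 2.27 (limma adjusted p = 0.00325), from 1.02 to 11.9 CPM. KDM6A and KDM5C were kept only through samples after EGA, with at most 2.66 and 3.07 CPM before it. RIOX1 (named NO66 in the table) had a change of -3.11 (limma adjusted p = 1.12e-05) and KDM7A (JHDM1D) of -2.71 (limma adjusted p = 8.60e-04), and RIOX2 (MINA) went from 87.8 to 39.5 CPM (limma adjusted p = 0.00299). KDM1A, KDM1B, KDM3A, JMJD1C and JARID2 did not pass, and KDM3A and JARID2 did when scaled to total reads. KDM4D, a further member of the KDM4 family, had 6 reads in all samples together and was not kept.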

How the data were processed

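RNA-Seq of 16 single bovine oocytes and embryos was analysed. The deposited values are a signal per locus: read counts that the authors divided by a size factor per sample, without division by gene length. The submitters' processing notes name cutadapt, FastQC, TopHat, Cufflinks and HTSeq. Their versions, the genome build and the rule for reads mapping to several places are not given in the sources used here. The smallest value of a sample divides 100% of its other values into whole numbers (tolerance 0.01), which gave back the reads. Median-of-ratios size factors computed from those reads equalled the inverse of that smallest value. CPM were computed from these reads.

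The main test was limma 3.58.1, under R 4.3.3, moderated with a trend, on log2(value + 1), Benjamini-Hochberg at 0.05, after edgeR's filterByExpr (9670 loci over stages, 6910 before against after EGA). Fold changes of loci with few reads are understated on this scale. Ratios, shares, permutations and figures were made in Python 3.11.15 with numpy 2.4.6 and pandas 2.3.3. Alternatives were pseudocounts of 0.5 and 5, TMM factors, total reads, no filter, edgeR 4.0.16 and DESeq2 1.42.0 on recovered reads, summed loci, a block for replicate number, 2 stages alone and leaving out each sample. The fit without both 8C samples, and leaving out samples in the unfiltered fit, were chosen after seeing the data.

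Named genes are the 6 members, 3 nearest loci each, and per list up to 3 that rose most and 3 that fell most at EGA among those passing. H1FOO, KDM5C, genes that did not pass and markers with few reads were named after their values were seen. The members and lists were chosen with earlier results of these data known. Nothing says that replicates came from different animals, so p-values measure only the spread between these samples. Tests of before against after EGA take samples of the same stage as separate units, and their p-values may be too small. Intervals and floors cover counting error only.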

Additional observations from a re-analysis of the deposited data

Results flagged for a closer look

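In 12 sets of values (6 genes, 6 samples before and 10 after EGA), the gap of the highest or lowest sample to its neighbour was compared with the range by Dixon's criterion, which chance passes in about 1 of 20 sets, and 4 values passed. KDM4A in MII replicate 2 (49.96 CPM) was far below the other 5 samples before EGA, the next at 223 CPM. KDM4C in BL replicate 1 (3.93 CPM, 4 reads) stood above the other 9 embryos after EGA, the next at 0.962 CPM with 1 read. KDM6B in MII replicate 1 (16.8 CPM, 38 reads) stood above the next sample before EGA at 4.92 CPM. KDM6B in BL replicate 2 (26.4 CPM, 18 reads) stood above the next embryo at 13.8 CPM. The 8C embryos, which differ for KDM4A, did not pass.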

How the results depend on the processing

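Between 3 and 5 genes passed over the stages and between 2 and 4 at EGA under every alternative run. The 4 steps between neighbouring stages that passed became 2 without a filter and ranged from 2 to 4 when samples were left out (2 without 4C replicate 1 or 2). Over all loci, those passing over the stages were 6449 of 9670, 6950 of 18318 without a filter and 5650 to 6891 with a sample left out. At EGA they were 4619 of 6910, 7075 of 18318 without a filter and 4390 to 4650 with a sample left out. From 4C to 8C they were 3560, 1297 with the 2 stages alone, 1993 without 4C replicate 2 and 2042 without 4C replicate 1, up to 3707. Of 9670 loci, those lower at that step were 1849 in limma, 1083 in edgeR and 1191 in DESeq2, and those higher 1711, 1656 and 1648. Summing loci moved the mean share of KDM4C after EGA from 0.0489% to 0.369%, and leaving out samples gave 0.0212% to 0.0543%. The unfiltered changes of KDM4B and KDM6B at EGA, near 0, turned sign with the sample left out (-0.26 to 0.30 and -0.51 to 0.52, neither passing). The log2 ratio change of KDM5B to KDM5A kept its side of 0.05 throughout. The cause of these shifts was not tested, other than the larger number of loci without a filter and the fewer samples with 2 stages. Replicate numbers name different oocytes or embryos: over 28 pairs of stages their deviations correlated from -0.26 to 0.13, with 1 over 0.1. With the replicate block 4 genes passed over the stages, 3 at EGA and 3 of the steps, the KDM4B step from CM to BL being lost (3.22, limma adjusted p = 0.0612), and the ratio of KDM5B to KDM5A had an exact permutation adjusted p of 4.78e-04. With that block 6381 of 9670 loci passed over the stages and 4579 of 6910 at EGA. Shares per coding length were planned and not run, since no lengths were at hand. Only 2 samples per stage and 72 to 300 reads in all stand behind KDM4B, KDM6B and KDM4C.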

Other observations

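Genes of the methyltransferase families and complexes for the same marks were listed as well. For H3K27, EED (2.13, limma adjusted p = 2.67e-05), SUZ12 (2.06, limma adjusted p = 3.51e-04) and EZH2 (1.55, limma adjusted p = 0.00881), the core of Polycomb repressive complex 2, rose at EGA, which is 3 of 3 kept of 4 listed, where 36.9% of all loci passed as higher, with a median of 2.06 on the log2 scale against 0.23 for all loci. For H3K36, SETD2, the main methyltransferase of that mark, rose by 3.61 (limma adjusted p = 9.64e-07) and NSD2, NSD3 and ASH1L did not pass (1 of 4 kept, median 0.28). The 3 kept H3K9 methyltransferases did not pass at EGA in limma, with SUV39H2 at -0.66, SETDB1 at -0.62 and EHMT1 at -0.28 (limma adjusted p = 0.359, 0.380 and 0.504). Their median was -0.62. Over the 8 stages, where 66.7% of all loci passed, SUV39H2 and SETDB1 did pass (limma adjusted p = 0.00376 and 0.00141) and EHMT1 did not (0.170). In CPM, SUV39H2 was at 71.3 ± 20.8 before EGA (SD, n = 6) and at 113 ± 143 after it (SD, n = 10). Of 2 kept genes listed for H3K4 by family name, KMT2E (named MLL5 in the table) had a change of -2.21 (limma adjusted p = 1.77e-04). KMT2C (MLL3) had one of -0.19 (limma adjusted p = 0.595). Whether these genes act on H3K4 here was not tested. Where a member did not pass, its sign could turn with the scaling: KMT2C, EHMT1 and NSD3 were above 0 when scaled to total reads, and NSD2 was below 0 with TMM factors.

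Markers of the embryo moved as well: NANOG (4.03) and POU5F1 (3.53), TFAP2C (6.96), KRT18 (4.21) and TEAD4 (3.76) were higher after EGA (limma adjusted p from 2.66e-12 to 0.00166), while KRT8 (0.59, limma adjusted p = 0.691), GATA3 (1.12, limma adjusted p = 0.316) and GATA2 (-0.46, limma adjusted p = 0.670) did not pass. This makes 3 of 6 kept trophectoderm markers and 2 of 2 kept inner cell mass markers higher, where 36.9% of all loci were. The third inner cell mass marker listed, SOX2, had 67 reads and was not kept for the test, with a mean of 2.63 CPM before and 3.09 CPM after EGA. All 6 kept oocyte markers of 9 listed were lower, where 29.9% of all loci were. BMP15 (no read), NLRP5 and ZP3 were not kept. HAS2 (-6.96) and STAR (-1.30) of the cumulus list were lower too. NANOG and TEAD4 had no read before EGA, and ZP2 went from 285 to 2.78 CPM. Markers like these were kept mainly through the period where they are high. Their direction was thus largely fixed by the filter, and nothing is read from these marker counts.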
